A study of Saccharomyces cerevisiae with 32 samples.

Results

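The 60S assembly factors are the proteins that build the large subunit of the yeast ribosome and leave it before it is used in translation. A set of 52 of these genes was followed, chosen by name as factors known to act on large-subunit precursors. All 52 were found in each of the 4 deposited tables, of which that of ded1-cs held 4918 genes, that of ded1-ts 5326, and each of the 2 for tif1-ts 4921. All 52 also passed the abundance floor, a mean of mutant and wild type of at least 10 normalized units in both assays, as did 4855 of all genes in the ded1-cs table, 5238 in that of ded1-ts, and 4833 (30 °C) and 4854 (37 °C) in those of tif1-ts. The members were grouped by 13 roles in the assembly pathway.

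The study set strains with mutant helicases of translation initiation against strains with the wild-type gene in Saccharomyces cerevisiae, and measured ribosome footprints and mRNA, with 16 groups of 2 biological replicates in all. The groups were ded1-cs (strain NSY5) against wild-type DED1 (NSY4) at 15 °C, ded1-ts (NSY11) against another wild-type DED1 strain (NSY10) at 37 °C, and tif1-ts (NSY21) against wild-type TIF1 (NSY20) at 30 °C and at 37 °C. DED1 encodes a DEAD-box helicase, TIF1 and its near-identical copy TIF2 encode the helicase eIF4A, and cs and ts stand for cold-sensitive and temperature-sensitive alleles. All cultures grew in synthetic complete medium, were shifted in temperature and received cycloheximide, a drug that stops elongating ribosomes, before harvest. Whether the strains carried further alleles, among them any at TIF2 in the TIF1 strains, is not stated in the sources used here.

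Large-subunit assembly begins in the nucleolus, where early factors bind the rRNA precursor while RNA helicases and methyltransferases act on it. Later factors cut out or protect the internal spacers, bring in the 5S ribonucleoprotein particle (RNP), and remodel the particle in the nucleoplasm. The last factors carry the particle through the nuclear pore, keep it from joining a small subunit too soon, and are released in the cytoplasm. In yeast the mRNAs of these genes are known to vary together with growth rate and stress.

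The values were log2 normalized abundances with 1 value per group, so no difference has a replicate check and no p-value was computed. Estimated footprint depth, in M reads (10 to the power 6), was 6.27 in ded1-cs and 12.01 in its wild type, 10.01 in ded1-ts and 10.4 in its wild type, 4.69 in tif1-ts and 5.69 in wild type at 30 °C, and 3.88 in tif1-ts and 11.8 in wild type at 37 °C. The estimate for ded1-cs is the least certain, and no depth could be estimated for mRNA. The standard error (SE) of a member's footprint change, from read numbers alone, had a median of 0.06 in ded1-cs, 0.08 in ded1-ts, and 0.09 and 0.10 in tif1-ts at 30 °C and 37 °C; it leaves out any spread between cultures. DED1 itself had a TE change of 1.09 and an mRNA change of 0.95 in ded1-cs, and 0.19 and −0.77 in ded1-ts, per the authors' deposited table. A mutant allele need not change the mRNA of its own gene, so these values do not check the labels; TIF1 was not analysed here. In bulk cultures fewer cells that use a gene and less RNA per cell cannot be told apart, and every change is relative to the other genes of its table.

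Translational efficiency (TE) is a gene's footprint abundance divided by its mRNA abundance, and its change is given as log2 of mutant over wild type. The 60S assembly factors had higher TE in ded1-cs in the cold and lower TE in ded1-ts and tif1-ts in the heat. Their median TE change was 0.53 in ded1-cs and −0.37 in ded1-ts, and in tif1-ts it was −0.12 at 30 °C and −0.58 at 37 °C, as computed from the authors' deposited table of each comparison. In the same order, the medians of all genes were 0.10, 0.08, 0.04 and 0.08. In ded1-cs 43 of 52 members lay above 0, against 53.9% of all genes. Below 0 were 46 of 52 in ded1-ts, against 43% of all genes, 39 of 52 in tif1-ts at 30 °C, against 45.4%, and 47 of 52 in tif1-ts at 37 °C, against 44.1%. Most members thus shared the direction of their group, while few of them passed 2-fold.

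**Figure D1:**
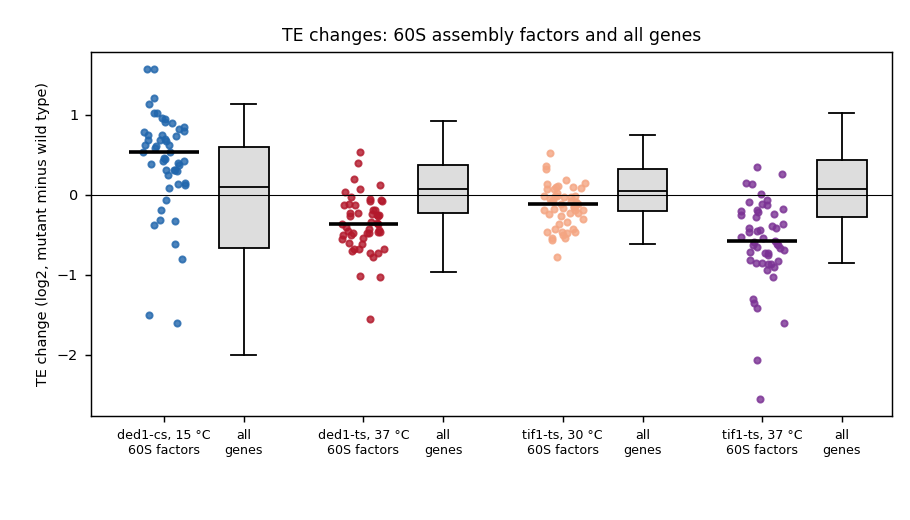
TE change (log2, mutant minus wild type) of each of the 52 60S assembly factors (points, with a bar at their median) beside all genes of the same comparison (box from the lower to the upper quartile with a line at the median, whiskers at the percentiles 5 and 95). The members' medians of 0.53, −0.37, −0.12 and −0.58 lie above that of all genes in ded1-cs and below it in the other comparisons.

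Few members passed the 2-fold threshold, and several of the counts were near the share over all genes. In ded1-cs 6 members were at least 2-fold higher in TE and 2 at least 2-fold lower, against 8.63% and 17.4% of all genes. As a share of 52, the higher members were 11.5% and the lower ones 3.85%, so the members held fewer strongly lower genes than the table as a whole and a share of strongly higher genes near it. In ded1-ts 3 members, 5.77%, were at least 2-fold lower and none higher, against 4.64% and 4.18% of all genes. The share of lower members was thus near the background, and with differences of the level columns 2 members were lower. No member passed 2-fold in tif1-ts at 30 °C in either direction, where 1.14% of all genes were lower and 2.34% higher, which is near the background. In tif1-ts at 37 °C 7 members, 13.5%, were at least 2-fold lower and none higher, against 3.19% and 5.27% of all genes.

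**Figure D2:**
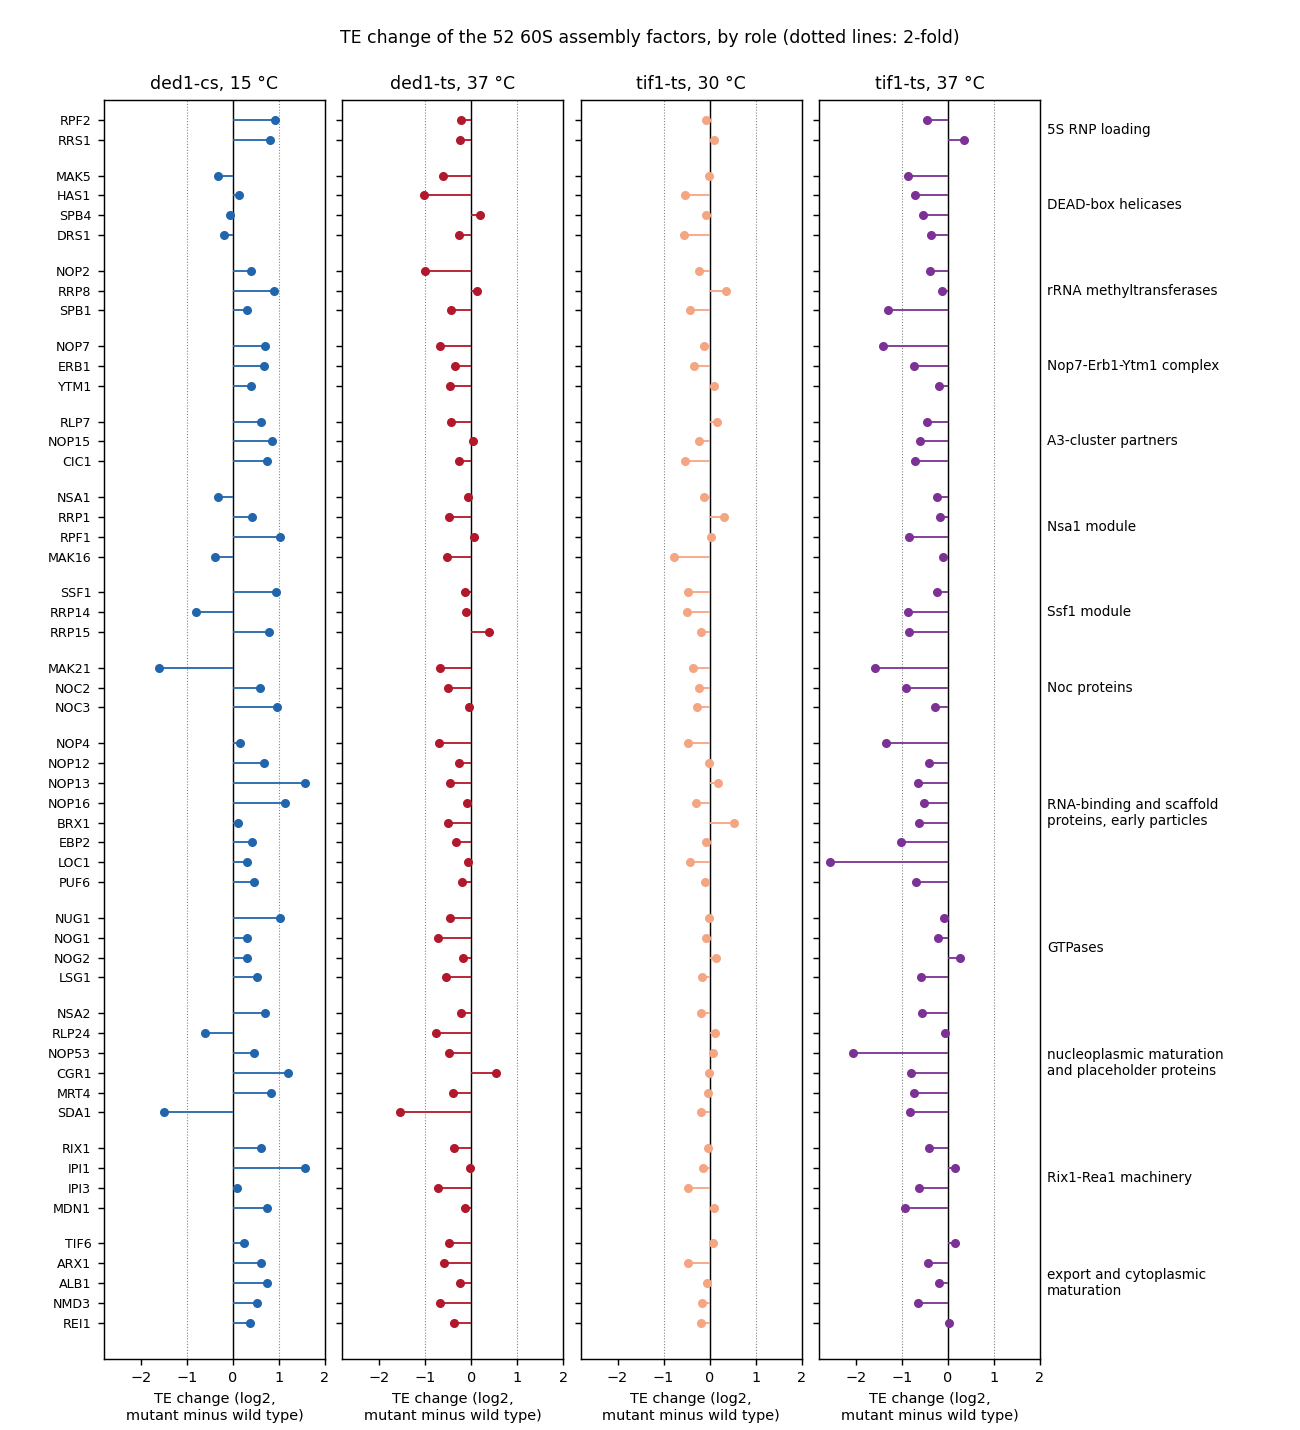
TE change (log2, mutant minus wild type) of each 60S assembly factor in the 4 comparisons, grouped by role from top to bottom, with dotted lines at 2-fold. Most points lie right of 0 in ded1-cs and left of 0 in ded1-ts and in tif1-ts at 37 °C, with MAK21 and SDA1 far to the left in ded1-cs, SDA1 in ded1-ts, and LOC1 and NOP53 in tif1-ts at 37 °C.

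The higher TE of the members in ded1-cs at 15 °C came with more footprints on mRNA levels close to wild type. Their median footprint change was 0.65 and their median mRNA change 0.11, against 0.07 and 0.03 for all genes, from the authors' deposited table. Footprints were above 0 for 45 of 52 members, against 53.6% of all genes. Footprints of 9 members were at least 2-fold higher, against 6.26% of all genes, and those of 2 at least 2-fold lower, against 16.4%. With changes taken relative to the median of all genes, 5 members were at least 2-fold higher in footprints, so the count of 9 depended on this choice. The share of all genes on that scale was not computed. No member had a 2-fold mRNA change, where 2.04% of all genes were lower and 0.84% higher, so 0 of 52 is near the background.

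The highest TE changes in ded1-cs were spread over several steps of the pathway. IPI1, a subunit of the Rix1 complex that acts on nucleoplasmic particles, had a footprint level of 8.31 and an mRNA level of 7.6 in ded1-cs, against 7.16 and 8.0 in wild type. Its footprints were thus higher in the mutant although its mRNA was lower, and its TE change per the authors' deposited table was 1.58. NOP13, a nucleolar RNA-binding protein, had a footprint level of 10.10 and an mRNA level of 9.1 in ded1-cs, against 9.03 and 9.6 in wild type, again with more footprints on less mRNA. Its TE change was also 1.58 per the authors' deposited table, made of 1.07 for footprints (SE 0.05) and −0.51 for mRNA. CGR1, a small factor of nucleoplasmic particles, had a footprint level of 8.60 and an mRNA level of 7.4 in ded1-cs, against 6.92 and 6.9 in wild type. It had the highest footprint change of the members, 1.68 (SE 0.10), and a TE change of 1.20 per the authors' deposited table. NOP16, a protein of early particles, followed with a TE change of 1.13, and the GTPase NUG1 and the Nsa1-module protein RPF1 each with 1.02, per the authors' deposited table.

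MAK21 and SDA1 went the other way in ded1-cs. MAK21, also called Noc1, pairs with Noc2 on the earliest precursors. Its footprint level was 8.50 and its mRNA level 9.9 in ded1-cs, against 9.90 and 9.7 in wild type. Its TE change was −1.60 and its footprint change −1.40 (SE 0.08) per the authors' deposited table. SDA1, a nuclear protein needed for the particle to mature towards export, had a footprint level of 8.19 and an mRNA level of 9.8 in ded1-cs, against 9.50 and 9.7 in wild type. Its TE change per the authors' deposited table was −1.50, so both genes had fewer footprints in the mutant on mRNA close to the wild-type level. RRP14, of the Ssf1 module, had a TE change of −0.80 and RLP24, a placeholder for a ribosomal protein, one of −0.61 per the authors' deposited table. RRP14 differed from these in its mRNA, which was higher by 0.65, the highest mRNA change of the members in this comparison, with a footprint change of −0.15 per the authors' deposited table.

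By role, several groups were split in ded1-cs. The other Noc proteins had TE changes of 0.59 (NOC2) and 0.96 (NOC3) per the authors' deposited table, opposite in sign to MAK21. In the Nsa1 module, which holds early rRNA domains, RPF1 (1.02) and RRP1 (0.42) stood above 0 while MAK16 (−0.38) and NSA1 (−0.33) stood below it per the authors' deposited table. In the Ssf1 module SSF1 (0.95) and RRP15 (0.78) stood above 0 and RRP14 below it, again per the authors' deposited table. SSF1 has a near-identical copy, SSF2, whose TE change was 0.87 per the authors' deposited table, and how reads shared by the pair were counted is not stated in the sources used here. The 4 DEAD-box helicases that remodel the precursor were the role with the lowest median, −0.13, from HAS1 (0.14), SPB4 (−0.07), DRS1 (−0.19) and MAK5 (−0.31) per the authors' deposited table.

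Other roles lay wholly above 0 in ded1-cs. The Rpf2-Rrs1 pair, which brings the 5S RNP into the particle, had TE changes of 0.91 (RPF2) and 0.80 (RRS1) per the authors' deposited table. The Nop7-Erb1-Ytm1 complex, needed for spacer processing, had 0.69 (NOP7), 0.68 (ERB1) and 0.39 (YTM1) per the authors' deposited table. Its neighbours on the spacer, NOP15 (0.85), CIC1 (0.75) and RLP7 (0.61), were alike per the authors' deposited table. The rRNA methyltransferases had 0.90 (RRP8), 0.40 (NOP2) and 0.30 (SPB1), and all 8 RNA-binding and scaffold proteins of early particles lay above 0, from BRX1 (0.12) to NOP13, with NOP4 at 0.15, LOC1 at 0.31, EBP2 at 0.42, PUF6 at 0.45 and NOP12 at 0.67 per the authors' deposited table.

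The later steps were also mostly above 0 in ded1-cs. Of the GTPases that act as checkpoints, NOG1 and NOG2 each had 0.31, LSG1, which acts in the cytoplasm, 0.53, and NUG1 1.02, per the authors' deposited table. The nucleoplasmic factors MRT4, a placeholder for the stalk protein P0, NSA2, and NOP53, which recruits the RNA exosome, had 0.82, 0.69 and 0.46 per the authors' deposited table. This role was split as well, since CGR1 (1.20) also stood above 0 but SDA1 (−1.50) and RLP24 (−0.61) stood below it. In the Rix1-Rea1 machinery, MDN1, the large ATPase also called Rea1 that strips factors off the particle, had 0.74, RIX1 0.62 and IPI3 0.09, beside IPI1 at 1.58, per the authors' deposited table. The export and cytoplasmic factors kept within a narrow range, with ALB1 at 0.75, ARX1 at 0.62, the export adaptor NMD3 at 0.53, REI1, which releases Arx1, at 0.37, and TIF6, which blocks early joining of the small subunit, at 0.25 per the authors' deposited table.

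In ded1-ts at 37 °C the members were lower in both footprints and TE. Their median footprint change was −0.48 and their median mRNA change −0.13, against 0.01 and −0.01 for all genes, from the authors' deposited table. Footprints were below 0 for 47 of 52 members, against 49.3% of all genes, and those of 2 were at least 2-fold lower, against 6.19%. The shift was thus made of many changes below 2-fold.

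SDA1 was the lowest member in ded1-ts as well. Its footprint level was 8.16 and its mRNA level 9.98 in ded1-ts, against 9.59 and 9.9 in wild type. Per the authors' deposited table its TE change was −1.55, made of −1.43 for footprints (SE 0.09) and 0.12 for mRNA. HAS1, a DEAD-box helicase used in the assembly of both subunits, had a footprint level of 9.32 and an mRNA level of 9.60 in ded1-ts, against 10.48 and 9.7 in wild type. NOP2, which methylates the rRNA of the large subunit, had a footprint level of 9.32 and an mRNA level of 9.95 in ded1-ts, against 10.14 and 9.8 in wild type. TE changes were −1.02 for HAS1 and −1.01 for NOP2 per the authors' deposited table. In ded1-cs HAS1 (0.14) and NOP2 (0.40) stood above 0, while SDA1 (−1.50) stood below it, per the authors' deposited table.

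Several roles lay wholly below 0 in ded1-ts. All members of the Nop7-Erb1-Ytm1 complex were below 0, with NOP7 at −0.68, YTM1 at −0.46 and ERB1 at −0.35 per the authors' deposited table. All GTPases were below 0, from NOG1 at −0.73 over LSG1 (−0.55) and NUG1 (−0.46) to NOG2 at −0.19, per the authors' deposited table. All 5 export and cytoplasmic factors were below 0, from NMD3 at −0.68 to ALB1 at −0.24 per the authors' deposited table, and all 8 RNA-binding and scaffold proteins were below 0, from NOP4 at −0.70 to LOC1 and NOP16 at −0.08. The Noc proteins stood at −0.68 (MAK21), −0.50 (NOC2) and −0.06 (NOC3) per the authors' deposited table, all on the same side of 0. The Rix1-Rea1 genes ranged from IPI3 at −0.73 to IPI1 at −0.02 per the authors' deposited table. The values of NOC3, IPI1, LOC1 and NOP16 were near or within the median counting SE of footprint changes, 0.08, so their signs are uncertain.

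Only 6 members had a TE change above 0 in ded1-ts. CGR1 had the highest, 0.54, followed by RRP15 (0.39), SPB4 (0.20), RRP8 (0.12), RPF1 (0.07) and NOP15 (0.03) per the authors' deposited table. The signs of RPF1 and NOP15 are uncertain, as their values lay within the median counting SE of footprint changes, 0.08. CGR1 had a footprint level of 8.24 and an mRNA level of 6.95 in ded1-ts, against 7.74 and 7.0 in wild type. MDN1 was alone in having an mRNA change above 0.5 in this comparison. Its mRNA level was 10.58 and its footprint level 12.26 in ded1-ts, against 10 and 11.79 in wild type, so that its TE change per the authors' deposited table was only −0.13.

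At 30 °C tif1-ts showed little difference from its wild type in these genes. The median footprint change was 0.01 and the median mRNA change 0.14, against −0.01 and −0.01 for all genes, from the authors' deposited table. mRNA was above 0 for 40 of 52 members, against 48.2% of all genes. No member passed 2-fold in mRNA, where 1.03% of all genes were lower and 1.30% higher, or in footprints, where 1.49% were lower and 4.28% higher, and such counts are near the background. The lowest TE change was that of MAK16, of the Nsa1 module, with a footprint level of 7.43 and an mRNA level of 7.4 in tif1-ts, against 7.77 and 7.0 in wild type. Its TE change of −0.78 per the authors' deposited table was followed by the helicases DRS1 (−0.57) and HAS1 (−0.54), by CIC1 (−0.54) and by RRP14 (−0.50). The highest was BRX1, a scaffold protein of early particles, with 0.52, followed by RRP8 (0.36) and RRP1 (0.32) per the authors' deposited table. The median counting SE of 0.09 in this comparison covers the footprint change alone, and the mRNA part of these TE changes has no error estimate.

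In tif1-ts at 37 °C the members had more mRNA than in wild type but no more footprints. Their median mRNA change was 0.39 and their median footprint change −0.06, against −0.04 and 0.01 for all genes, from the authors' deposited table. mRNA was above 0 for 50 of 52 members, against 46.9% of all genes, and that of 9 members was at least 2-fold higher, against 3.79%. Footprints were below 0 for 35 of 52, against 49% of all genes, and no member had a 2-fold footprint change, where 4.16% of all genes were lower and 6.37% higher. The lower TE of this comparison thus stood beside higher mRNA, whereas that of ded1-ts stood beside lower footprints.

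**Figure D3:**
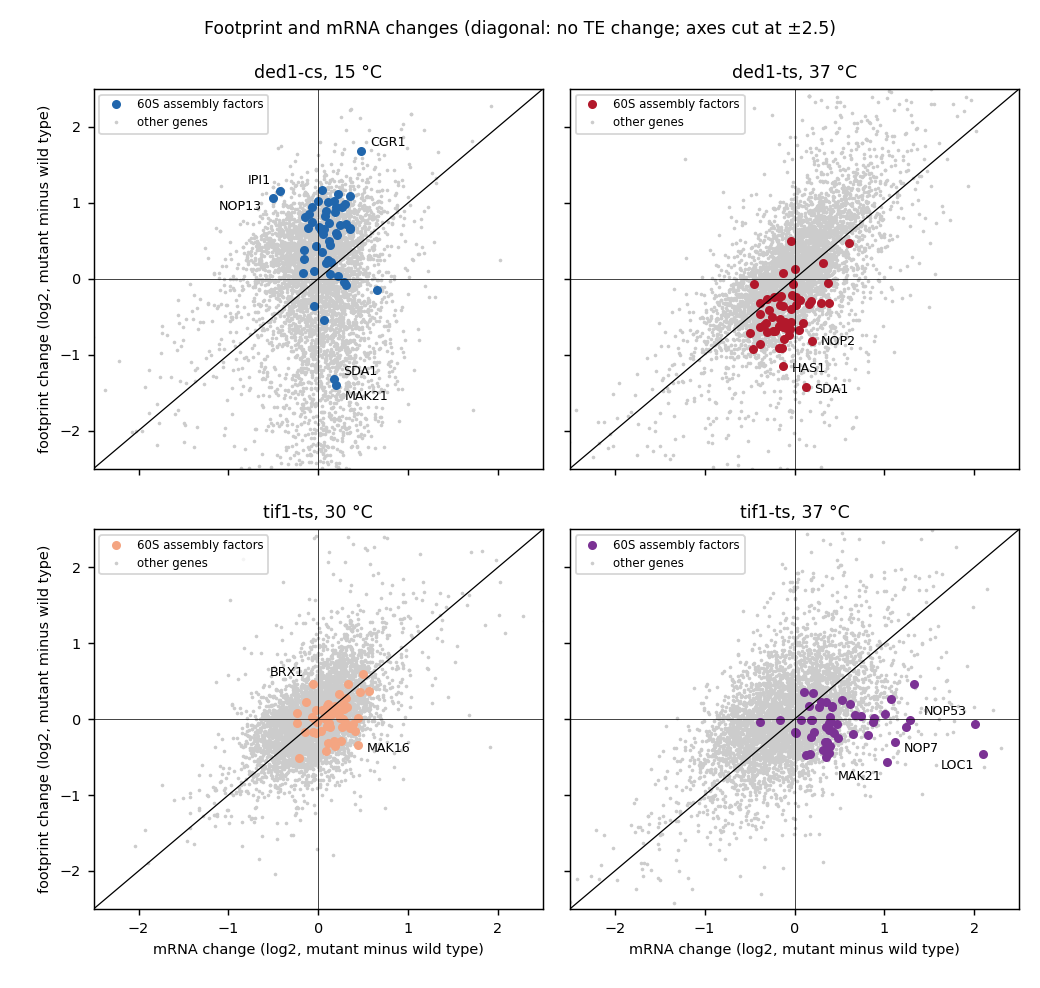
Footprint change against mRNA change (both log2, mutant minus wild type) of the 60S assembly factors (coloured points) and other genes (grey points) in the 4 comparisons, where points under the diagonal have lower TE in the mutant. The members spread upwards at an mRNA change near 0 in ded1-cs, downwards in ded1-ts, and to the right at a footprint change near 0 in tif1-ts at 37 °C, where their median mRNA change was 0.39.

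LOC1 and NOP53 had the lowest TE changes of the members in tif1-ts at 37 °C. LOC1, a nuclear RNA-binding protein, had an mRNA level of 6.3 and a footprint level of 5.69 in tif1-ts, against 4.2 and 6.15 in wild type. Its TE change per the authors' deposited table was −2.56, made of 2.09 for mRNA and −0.46 for footprints (SE 0.19). LOC1 was below an abundance of 100 in this comparison and was singled out after its values were seen. NOP53 had an mRNA level of 7.7 and a footprint level of 6.78 in tif1-ts, against 5.7 and 6.85 in wild type. Its mRNA change was 2.00 and its TE change −2.07 per the authors' deposited table. Both genes had at least 2-fold more mRNA in the mutant. LOC1 had fewer footprints, and the footprint change of NOP53, −0.07, was within the median counting SE of 0.10. The TE change is computed with the same mRNA value, so an error in that value would move both.

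Another 5 members were at least 2-fold lower in TE in tif1-ts at 37 °C. MAK21 had −1.60, NOP7 −1.41, NOP4 −1.35, the methyltransferase SPB1 −1.30 and EBP2, a partner of Brx1, −1.03 per the authors' deposited table. MAK21 had an mRNA level of 8.9 and a footprint level of 8.20 in tif1-ts, against 7.9 and 8.77 in wild type. Its footprint change of −0.57 (SE 0.08) was the lowest of the members per the authors' deposited table. For SPB1 the mRNA change was 1.29 and the footprint change −0.01, and for NOP4 they were 1.24 and −0.11, per the authors' deposited table. The other members with at least 2-fold more mRNA were RRP14 (1.33), NOP7 (1.12), CGR1 (1.07), MAK21 (1.03) and MDN1 (1.01) per the authors' deposited table. CGR1, like LOC1 and RRP14, was below an abundance of 100 here, and with that floor 6 members had at least 2-fold more mRNA.

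Every role had a median TE change below 0 in tif1-ts at 37 °C. Median TE changes per the authors' deposited table were −0.90 for the 3 Noc proteins, −0.85 for the Ssf1 module, −0.77 for the nucleoplasmic factors, −0.75 for the Nop7-Erb1-Ytm1 complex, −0.67 for the RNA-binding and scaffold proteins and −0.64 for the DEAD-box helicases. They were −0.62 for the partners of that complex on the spacer, −0.52 for the Rix1-Rea1 machinery, −0.38 for the rRNA methyltransferases, −0.21 for the Nsa1 module, −0.20 for the export and cytoplasmic factors, −0.15 for the GTPases and −0.06 for the 5S RNP pair. Members above 0 were RRS1 (0.35), NOG2 (0.25), TIF6 (0.15), IPI1 (0.14) and REI1 (0.01) per the authors' deposited table. The sign of REI1 is uncertain, as its value lay within the median counting SE of footprint changes, 0.10. RRS1 was unlike its partner RPF2 (−0.46), and its mRNA was lower in tif1-ts, at a level of 6.4, than in wild type, at 6.8. RRS1 and IPI1 were below an abundance of 100 in this comparison. The roles hold 2 to 8 genes each, so a median can rest on 1 gene, and no test of the order was made. REI1 overlaps the gene SLM6 and NOG2 contains the small nucleolar RNA gene SNR191, and the strand setting of the authors' counts is not stated in the sources used here.

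The TIF1 strains were measured at both temperatures, which shows in which group the mRNA of a member stood apart. Because the tables were normalized separately, levels were set relative to the median gene of each group. Wild-type TIF1 mRNA of 4 members was at least 2-fold lower at 37 °C than at 30 °C, namely LOC1, NOP53, NOP7 and RRP14, against 2.04% of all genes. In tif1-ts no member was, against 1.90% of all genes. The relative mRNA level of LOC1 was −0.9 in tif1-ts and −2.9 in wild type at 37 °C, and −0.7 in tif1-ts and −0.8 in wild type at 30 °C. That of NOP53 was 0.5 in tif1-ts and −1.4 in wild type at 37 °C, and 0.2 in tif1-ts and 0.1 in wild type at 30 °C. In both cases wild type at 37 °C stood apart from the other 3 groups, on a single value for each gene. NOP7 stood at 1.0 in tif1-ts and 0 in wild type at 37 °C, and RRP14, which was below an abundance of 100 there and was singled out after its values were seen, at −0.2 in tif1-ts and −1.4 in wild type. The change of mRNA from 30 °C to 37 °C had a standard deviation across the 52 members of 0.21 in tif1-ts and 0.55 in wild type.

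**Figure D4:**
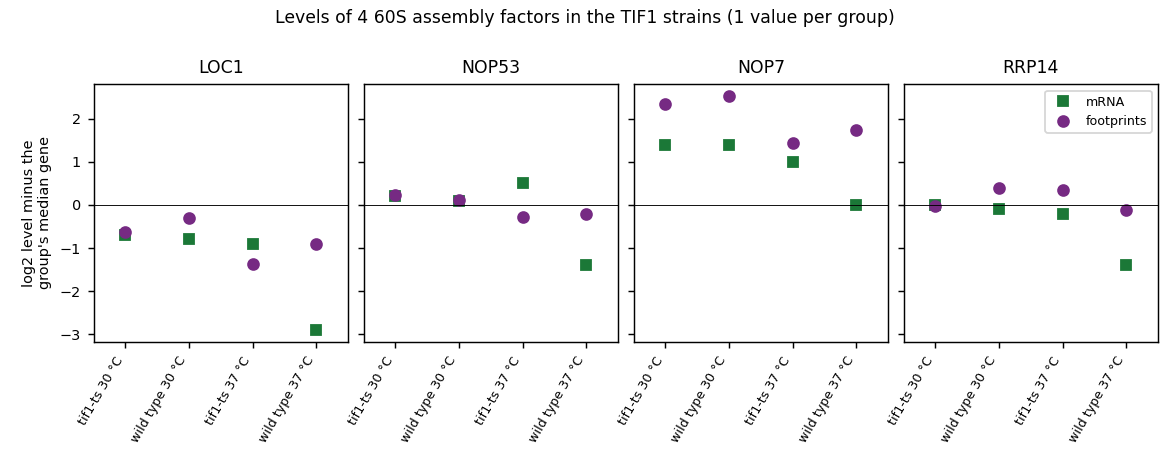
mRNA (squares) and footprint (circles) levels of LOC1, NOP53, NOP7 and RRP14 in tif1-ts and wild-type TIF1 at 30 °C and 37 °C, as log2 level minus the level of the group's median gene, with 1 value per group. The mRNA of each gene is lowest in wild type at 37 °C, at −2.9 for LOC1 and −1.4 for NOP53, while footprints differ less.

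Footprints of the members were lower at 37 °C than at 30 °C in both TIF1 strains. The median of the change relative to the group's median gene was −0.50 in tif1-ts and −0.40 in wild type. No member had a 2-fold footprint decrease with temperature, against 2.99% of all genes in tif1-ts and 1.73% in wild type, which is near the background. MDN1 had the lowest change in tif1-ts, −0.97, and NOP7 in wild type, −0.79. Lower footprint levels at 37 °C were thus found with and without the mutation, on levels from tables normalized separately. The mRNA median moved by 0.10 in tif1-ts and by 0.00 in wild type.

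The opposite signs in ded1-cs and in both mutants at 37 °C held for most members one by one. TE was above 0 in ded1-cs and below 0 in both ded1-ts and tif1-ts at 37 °C for 33 of 52 members, 63.5%, against 9.88% of the 4746 genes shared by all tables. They include NUG1, NOP13, NOC3, RPF2, MRT4 and MDN1. The pattern has the signs of the members' medians in these comparisons, so it is no separate check of them. It leaves out tif1-ts at 30 °C, where the members' median TE change was also below 0, at −0.12. TE was below 0 in all 4 comparisons for 7 members, 13.5%, against 11.4% of all genes, a share near the background. These were DRS1, MAK5, MAK16, NSA1, MAK21, RRP14 and SDA1. SDA1 and MAK21 were thus below 0 in each of the 3 mutants, with TE changes for MAK21 of −1.60 in ded1-cs, −0.68 in ded1-ts, and in tif1-ts of −0.37 at 30 °C and −1.60 at 37 °C, values of the authors' deposited table.

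The TE changes of the members stood at different levels in the 2 DED1 alleles. TE change in ded1-cs minus that in ded1-ts had a median of 0.91, with 48 of 52 members above 0, against a median of −0.01 and 2352 of 4746 above 0 for all genes. SDA1 was low and CGR1 high in both. The comparisons use different alleles, wild-type strains and temperatures, and the contribution of each cannot be told apart.

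**Figure D5:**
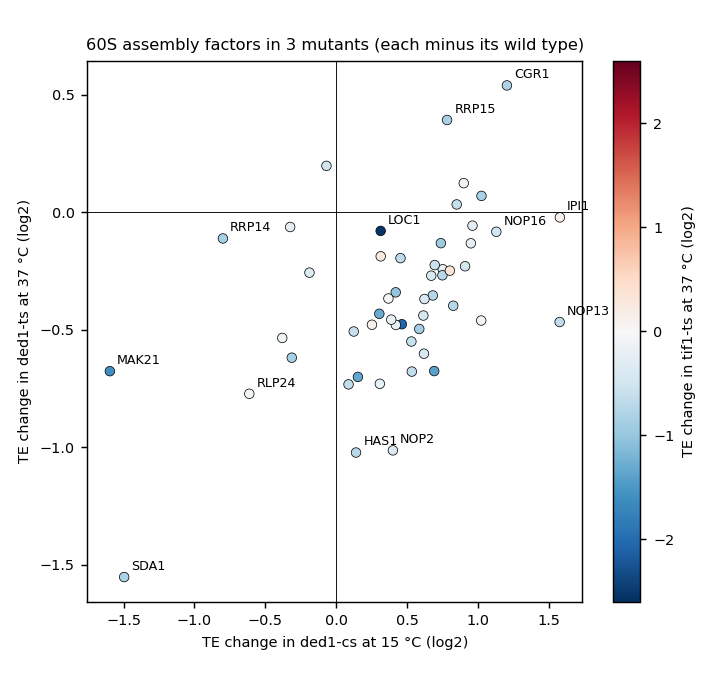
TE change of the 60S assembly factors in ded1-cs at 15 °C (x axis) against ded1-ts at 37 °C (y axis), both log2 of mutant over wild type, with the TE change in tif1-ts at 37 °C as colour (blue lower, red higher). Most members lie in the lower right, above 0 in ded1-cs and below 0 in ded1-ts, and SDA1 and MAK21 lie far to the left.

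The 2 heat-shifted mutants differed most in the members' mRNA. The mRNA change in ded1-ts minus that in tif1-ts at 37 °C was below 0 for 51 of 52 members, with a median of −0.56, while the footprint difference had a median of −0.38 and the TE difference one of 0.19. Over all genes the mRNA difference was below 0 for 2333 of 4746, and the medians were 0.01 for mRNA, −0.07 for footprints and −0.06 for TE. HAS1 and NOP2, low in ded1-ts, had −0.73 and −0.38 in tif1-ts, whereas LOC1 and NOP53 had −0.08 and −0.48 in ded1-ts, per the authors' deposited table. TE change in tif1-ts at 37 °C minus that at 30 °C had a median of −0.39, with 43 of 52 members below 0, against a median of 0.00 and 2367 of 4746 below 0 for all genes.

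The rank of the members among all genes followed the same course. TE levels divide footprints by mRNA of the same gene, so gene length cancels and genes can be ranked within a group. The median TE percentile of the members was 68.5 in ded1-cs and 51.6 in its wild type, and 37.3 in ded1-ts and 56.1 in its wild type. It was 62.0 in tif1-ts and 69.2 in wild type at 30 °C, and 39.0 in tif1-ts and 62.5 in wild type at 37 °C. MDN1 had the highest TE of the members in each group but tif1-ts at 37 °C, where RRS1 had it, and stood at percentile 96.6 in ded1-cs and 93.8 in its wild type. SDA1 had the lowest TE in ded1-cs, at percentile 13.5 against 38.6 in its wild type, and in ded1-ts, at percentile 4.96 against 36.7 in its wild type. IPI1 was the lowest in 3 wild-type groups and stood at percentile 72.7 in ded1-cs against 13.5 in its wild type. Both RRS1 and IPI1 were below an abundance of 100 in the tif1-ts comparison at 37 °C.

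Related gene lists showed where the 60S assembly factors were like their neighbours. For 43 other genes of large-subunit assembly that passed the floor, the authors' deposited table gave median TE changes of 0.44 for ded1-cs and −0.13 for ded1-ts, with −0.09 and −0.26 for tif1-ts at 30 °C and 37 °C. For 65 factors of small-subunit assembly they were, in the same order, 0.34, −0.29, −0.13 and −0.39. The signs matched those of the members in every comparison, and at 37 °C these medians were closer to 0. For the 80 genes of large-subunit ribosomal proteins, the products that these factors assemble, they were 0.38, 0.24, 0.37 and 0.48, above 0 throughout. In that order their mRNA medians were 0.34, −0.51, −0.46 and −0.60, so that in tif1-ts at 37 °C the assembly factors had higher mRNA with lower TE and the ribosomal proteins lower mRNA with higher TE. Many ribosomal protein genes are near-identical pairs that share reads. A shorter list, 7 subunits of RNA polymerase I, was not closer to 0 than the members in ded1-ts. Its medians there were −0.39 for TE and −0.54 for footprints, against −0.37 and −0.48 for the members. TE was below 0 for 6 of these 7 genes. Elsewhere the TE medians of this list were 0.17 (ded1-cs), −0.08 (tif1-ts, 30 °C) and −0.30 (tif1-ts, 37 °C), each nearer 0 than that of the members. The differences between the lists were not tested.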

How the data were processed

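The 32 samples, 16 mRNA and 16 footprint libraries, form 16 groups of 2 replicates, per the labels. Cultures received cycloheximide (100 µg/ml, 2 min) and extracts were treated with RNase I, per the labels' protocols. The authors deposited 4 tables of log2 normalized abundances with 1 column per group and assay, and their own log2 differences between mutant and wild type in footprints, in mRNA and in TE. How replicates were combined, the annotation and the handling of reads that match several places are not stated in the sources used here. The build sacCer2 and the tools TopHat2 2.0.7, Bowtie2 2.0.6, CASAVA 1.8 and DESeq are named without roles, per the submitters' processing notes. The deposited TE difference equalled the footprint minus the mRNA difference within 0.00001.

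From these, members were matched by symbol, and a gene entered if its mean abundance reached 10 in each assay and neither footprint value stood for 0 reads. Counts use a 2-fold threshold. Footprint depth came from the spacing of low values, of which 44.3% in ded1-cs and 78.8% to 100% elsewhere lay within 0.1 of a whole read (chance gives 20.0%). The planned limma fits needed replicate columns and were replaced by medians and counts. All members were to be named by role with at least 1 value, and the 5 highest and 5 lowest of abundance 100 or more in each comparison with their levels. Members, roles and comparison lists were chosen with earlier results of these data known. Symbols matched the R64 reference for 51 of 52 members; MDN1 is listed there as REA1. Alternatives were 2 other floors, the 1.5-fold threshold, changes relative to the median gene and differences of level columns. Python 3.11.15, pandas 2.3.3, numpy 2.4.6 and scipy 1.17.1 were used. The depth estimate and the 2-fold counts were run on simulated data made with known values, some genes being set to 1 read. Such a run checks that the code returns what was put in, not the estimated depth of ded1-cs.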

Additional observations from a re-analysis of the deposited data

How the results depend on the processing

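The medians of TE, mRNA and footprint change over the 52 members and their 2-fold counts, the values recomputed here, kept their direction and stayed within 1.5 times its value for counts and 0.1 for medians, with an abundance floor of 100, with no floor, and with differences of the level columns in place of the deposited ones. Role medians, counts by sign, patterns across comparisons, TE percentiles and related lists were not recomputed. Relative to the median of all genes, the TE median in ded1-cs was 0.43, and 5 members instead of 9 had footprints at least 2-fold higher there. The share of all genes past 2-fold on that scale was not computed. With a 1.5-fold threshold the counts grew: in ded1-cs TE was lower for 4 members and higher for 25, mRNA higher for 1 and footprints higher for 31; in ded1-ts TE was lower for 12, mRNA higher for 1 and footprints lower for 21. In tif1-ts at 30 °C TE was lower for 1 member and footprints higher for 1, and at 37 °C TE was lower for 26 and mRNA higher for 16. No share of all genes was computed at 1.5-fold, so these counts have no background beside them. Without setting levels relative to the median gene, an alternative chosen after seeing the data, the wild-type TIF1 mRNA median at 37 °C minus 30 °C was −0.10, and 4 members remained at least 2-fold lower, against 3.12% of all genes. No paired analysis was possible because the files hold 1 value per group, and for the same reason no replicate could be left out. A planned search for promoter motifs was not run. In the tif1-ts comparisons an abundance floor of 100 left 47 members at 30 °C and 43 at 37 °C, where footprint depth of the mutant was lowest.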
